A study of Homo sapiens with 2 samples.

Results

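The 25 cells described here are all the feeder-free extended pluripotent stem cells (ffEPSCs) of the study, split by how strongly the genes of chromosomes 5, 11, 14, 20 and 22 were read. In 18 cells these chromosomes stood high as a set (cells with gain), and in 7 cells they did not (cells without gain). The cells were chosen by that level, so the level itself is given as a description. The question is which genes elsewhere in the genome, and which repeats, differed between the same cells. The study profiled single cells of H9, an established human embryonic stem cell line, in the embryonic state (ESCs, 16 cells) and after conversion to ffEPSCs (25 cells), which makes 41 cells in all. No gene edit or treatment beyond the conversion is named in the labels, and both groups of ffEPSCs carry the conversion. Libraries were made with Smart-seq2, which copies polyadenylated RNA of a cell along its full length and amplifies it without molecular barcodes. All ffEPSCs are 1 deposited sample of 1 cell line, and cells of a sample are not replicates, so no test was made and every value describes these cells.

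Human pluripotent cells grown in culture acquire extra copies of chromosomes, and cells with such a gain can take over a dish. Genes on an extra copy are usually transcribed in proportion to it, whereas genes elsewhere can respond through the products of the gained genes. "Gain" is used below as a name for a level of RNA, since DNA copy number was not measured.

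Gene counts ran from 13477414 to 17789641 per cell without gain and from 12507469 to 17811209 with gain, so depth did not separate the groups. Genes with at least 1 read numbered 11373 to 15387 and 11462 to 15053. Each cell name carries a set number from 1 to 4 whose meaning is not given. Cells without gain came from set 1 (1 cell), set 3 (2 cells) and set 4 (4 cells), and cells with gain from set 1 (2 cells), set 2 (9 cells) and set 4 (7 cells). Only sets 1 and 4 hold both groups, so values within set 4 stand beside the main results. Cells are named by set and well. The libraries of ESCs and ffEPSCs shared 0 cell names.

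Levels are CPM, counts scaled to 1000000 summed counts of genes off the 5 chromosomes, so that the gain does not by itself lower all other genes. Ratios are log2 of the level with gain over the level without gain after adding 1 CPM, each level being summed over the cells of a group. A difference of 1 is 2-fold.

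The 5 chromosomes took 24.2% to 25.4% of a cell's gene counts with gain (median 24.9%), 19.01% to 21.1% without gain (median 20.6%) and 18.3% to 19.01% in ESCs (median 18.8%). The groups of ffEPSCs did not overlap in this share. For each cell and chromosome, the shift is the mean log2 level of its genes relative to the ESC cells, less the median of the other 17 autosomes. The mean shift over the 5 chromosomes ran from -0.01 to 0.28 without gain and from 0.47 to 0.73 with gain. The cells nearest the dividing value of 0.3 were well G4 of set 4 at 0.28 and well G1 of set 2 at 0.47.

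**Figure D1:**
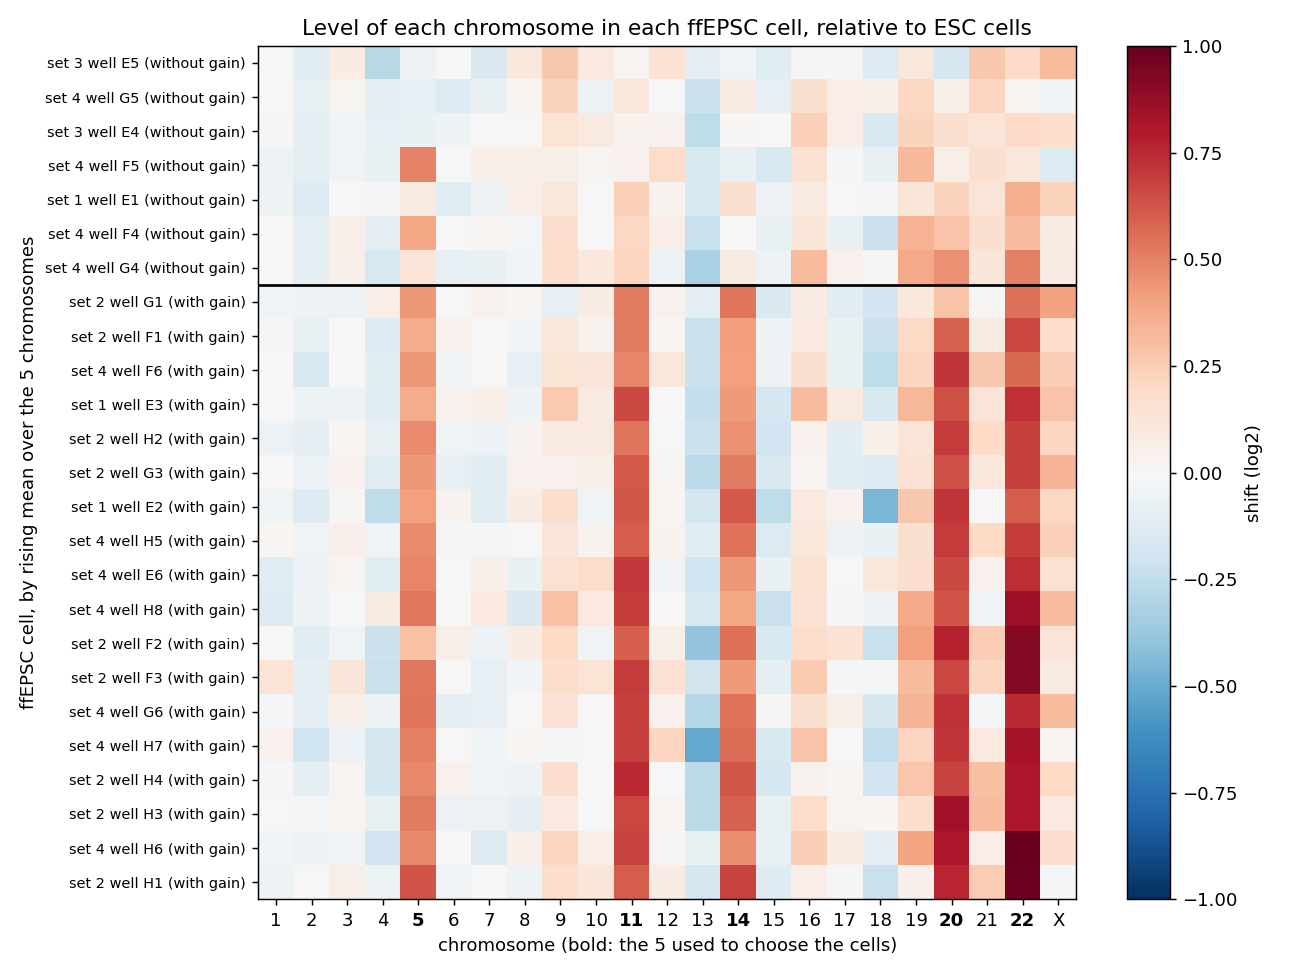
Shift of each chromosome (columns) in each of the 25 ffEPSC cells (rows), as log2 level relative to the ESC cells less the median of the other autosomes; red is higher and blue lower. Below the black line, the 18 cells with gain are red on chromosomes 5, 11, 14, 20 and 22, and above it wells F4 and F5 of set 4 are reddest on chromosome 5 (0.38 and 0.49).

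The name "without gain" did not hold for every chromosome of every cell. On chromosome 5, wells F4 and F5 of set 4 had shifts of 0.38 and 0.49, inside the range of the cells with gain (0.30 to 0.63). Well F5 had 0.05 on chromosome 11 and -0.08 on chromosome 14, so its high level was that of chromosome 5. Well G4 of set 4 reached 0.45 on chromosome 20, inside the range with gain (0.29 to 0.84), and 0.51 on chromosome 22, just under the range with gain (0.55 to 1.01). The same cell also stood at 0.32 on chromosome 16 and 0.38 on chromosome 19, which are not among the 5. On those 2 chromosomes the cells with gain ran from 0.03 to 0.31 and from 0.05 to 0.41. ESC cells themselves reached 0.31 on chromosome 5 and 0.53 on chromosome 22. Chromosome 22 still separated the groups, and chromosomes 11 and 14 did so by a wider gap, with 0.03 to 0.24 against 0.49 to 0.75, and -0.08 to 0.16 against 0.39 to 0.68. The 3 cells with the lowest mean shift, under 0.1, were wells E4 and E5 of set 3 and well G5 of set 4.

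Over genes of at least 20 CPM, the median ratio was 0.31 on chromosome 5 (397 genes), 0.43 on chromosome 11 (445 genes), 0.47 on chromosome 14 (273 genes), 0.48 on chromosome 20 (213 genes) and 0.41 on chromosome 22 (164 genes). For scale, 3 copies over 2 would give 0.58. On the other 17 autosomes the medians lay between -0.06 and 0.03, and on X the median was 0.05. Within set 4 the medians were 0.18 on chromosome 5, where wells F4 and F5 belong to the lower group, and 0.46, 0.41, 0.43 and 0.41 on chromosomes 11, 14, 20 and 22. Without wells F4 and F5, the median of chromosome 5 was 0.41. When each chromosome was cut into 10 runs of neighbouring genes, all 50 medians were above 0, from 0.25 on chromosome 5 to 0.58 on chromosome 20, so the higher level spanned each chromosome from end to end.

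**Figure D2:**
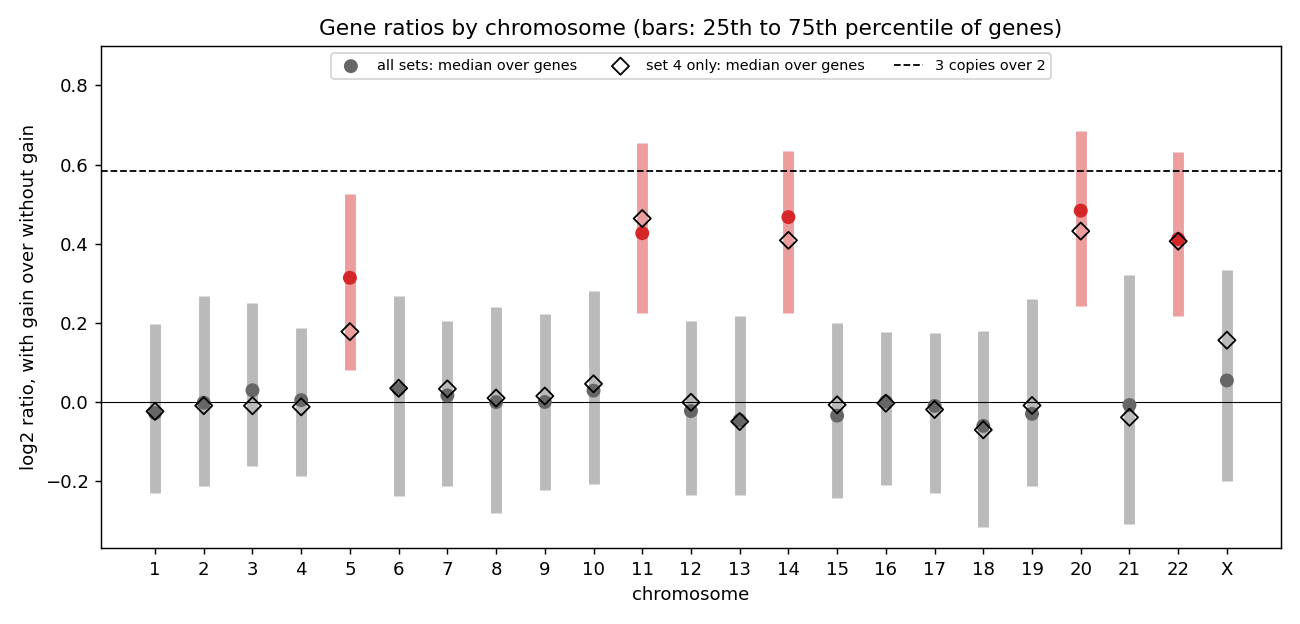
Median log2 ratio of the genes of each chromosome, cells with gain over cells without gain, for all sets (filled points) and for set 4 only (diamonds), with bars from the 25th to the 75th percentile of genes and a dashed line at 3 copies over 2. Chromosomes 5, 11, 14, 20 and 22 have medians of 0.31 to 0.48, and the other autosomes lie between -0.06 and 0.03.

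On the 5 chromosomes, 1742 of 2203 measured genes (79.1%) had a ratio above 0, against 48.9% of genes off them. At least 2-fold higher were 245 (11.1%) and at least 2-fold lower 58 (2.63%). These genes were used to choose the cells, so their order is descriptive. FOXRED1, an assembly factor of respiratory complex I on chromosome 11, was at 87.6 to 153 CPM without gain (median 129 CPM) and 195 to 362 CPM with gain (median 307 CPM), a ratio of 1.23. TXN2, the mitochondrial thioredoxin on chromosome 22, was at 157 to 263 CPM and 376 to 551 CPM (ratio 0.98). In neither gene did the groups overlap, and the same held for YWHAB (0.51), SNRPB (0.51) and RPS25 (0.41), which makes 5 of 2203 genes (0.227%). These 5 were picked out for that separation.

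The most abundant genes of these chromosomes had ratios on both sides of the median of their chromosome. NPM1, a nucleolar chaperone and the highest gene of chromosome 5, was at 3986 to 8173 CPM without gain and 5570 to 8170 CPM with gain (0.17), with full overlap of the groups. GSTP1 on chromosome 11, which conjugates glutathione, had a ratio of 0.49 and RPS3 0.46, beside a median of 0.43 there. ST13 on chromosome 22 had 0.43, beside a median of 0.41. HNRNPC on chromosome 14, a pre-mRNA binding protein, stood at 2514 CPM without and 2382 CPM with gain (-0.08). Of the 2203 measured genes on the gained chromosomes 79.1% had a ratio above 0, and the others did not. OTX2, a homeobox gene of chromosome 14 read in primed pluripotent cells, was at 11.6 to 322 CPM without gain (median 97.6 CPM) and 0 to 255 CPM with gain (median 37.6 CPM), a ratio of -1.003. FERMT1 on chromosome 20, which links integrins to actin, was at 27.95 to 58.2 CPM without gain and 0 to 54.6 CPM with gain (-0.94), and 14 of 18 cells with gain lay below every cell without gain.

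Off the 5 chromosomes, 9125 genes were measured, that is, had at least 5 CPM in at least 1 group. With gain, 446 of them (4.89%) stood 2-fold or more above the cells without gain and 443 (4.85%) as far below. The median ratio was -0.01, and the directions were balanced. Within set 4 alone (7 against 4 cells) the same counts were 907 higher and 891 lower. Genes in which all 18 cells with gain lay above all 7 cells without gain numbered 6 (0.0658%), and 0 genes lay below in the same way. Those 6 genes were picked out for this separation, so no test was made of it.

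SLC25A5, the ADP/ATP translocase of the mitochondrial inner membrane, was at 1212 to 2090 CPM without gain (median 1509 CPM) and 2831 to 4329 CPM with gain (median 3413 CPM), against 959 to 1623 CPM in ESCs. RPL39, a protein of the large ribosomal subunit, was at 424 to 560 CPM (median 456 CPM) and 662 to 980 CPM (median 758 CPM). UXT, a prefoldin-like protein, was at 55.2 to 102.3 CPM and 102.6 to 250.01 CPM, so its groups touch. All 3 lie on X. NDUFA5, a subunit of complex I on chromosome 7, was at 252 to 380 CPM (median 294 CPM) and 384 to 674 CPM (median 478 CPM). Its ESC cells ran from 157 to 794 CPM and spanned both groups.

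The ratios were 1.09 for SLC25A5, 0.74 for RPL39, 0.89 for UXT and 0.71 for NDUFA5, and within set 4 they were 1.06, 0.84, 0.94 and 0.70. The 95% intervals of the count ratios were 1.08 to 1.101 for SLC25A5 and 0.69 to 0.73 for NDUFA5. Such intervals cover counting error only, since amplified reads are not independent molecules, and the spread between cells is much wider. The remaining 2 genes were processed pseudogenes, HSPA9P1 on chromosome 2 (ratio 1.03) and ENSG00000283041 on chromosome 7 (ratio 0.60). SLC25A5 and RPL39 themselves have many processed copies in the genome, and no source used here says how reads shared between copies were counted, so their values are uncertain.

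Pseudogenes off the 5 chromosomes differed with the place of the gene they are named after. Of 27 measured pseudogenes named after a gene on the 5 chromosomes, 24 had a ratio above 0, with a median of 0.38. Of 168 named after a gene elsewhere, 65 were above 0, with a median of -0.06. HSPA9P1 bears the name of HSPA9, a mitochondrial chaperone of chromosome 5 with a ratio of 0.44. TMX2P1 had 0.68 beside 0.92 for TMX2, and RPS13P2 0.54 beside 0.51 for RPS13. UBE2V1P2 went apart from its parent, at 0.48 beside -0.35 for UBE2V1. The part of reads shared between parent and copy in these values was not tested.

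The largest run of higher genes off the 5 chromosomes was on the long arm of X, at Xq24 (GRCh38, chrX:119236245-120630150, PGRMC1 to C1GALT1C1). It was found by scanning 5556 windows of 10 neighbouring genes off the 5 chromosomes, in which the highest median was 0.77 and the 99th percentile 0.36, so it was chosen by these values. The highest window on the gained chromosomes themselves was 0.73. All 15 genes of the block at 20 CPM or more had a ratio above 0, 10 were at least 1.5-fold and 4 at least 2-fold higher. As the run was chosen by its ratios, these counts are descriptive. Of all 281 X-linked genes at 20 CPM or more, 57.7% had a ratio above 0. Over all 454 measured X-linked genes 52.6% had a ratio above 0, 5.95% stood 2-fold or more higher, 8.15% as far lower, and 0.661% (SLC25A5, RPL39 and UXT) separated the groups. The median of the block was 0.74, which is 1.67-fold. It was 0.65 within set 4 and 0.72 within set 1, and 266 other X-linked genes had a median of 0.03. Relative to ESCs the block stood at 0.06 without gain and 0.93 with gain.

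The block holds genes of varied function. SLC25A5 and RPL39 lie in it, as does LAMP2, a membrane protein of the lysosome, at 108 to 309.5 CPM without gain (median 203 CPM) and 281 to 497 CPM with gain (median 372 CPM). For LAMP2, 15 of 18 cells with gain lay above every cell without gain (ratio 0.89, 0.65 within set 4). NKAP, a nuclear protein of RNA processing, had a ratio of 1.41, STEEP1, which takes part in STING traffic, 1.23, and C1GALT1C1, the chaperone of the enzyme that extends mucin-type glycans, 1.02. UPF3B, of nonsense-mediated decay, had 0.80, UBE2A, a ubiquitin-conjugating enzyme, 0.63, and PGRMC1, a haem-binding membrane protein, 0.47. MCTS1, a translation factor, had the lowest ratio of the block, 0.14, followed by ZBTB33, a reader of methylated DNA, with 0.22. RNF113A and NDUFA1 (0.81 and 0.36) overlap in the annotation, and without a stated use of strand their reads cannot be told apart.

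In each cell, the mean log2 level over the 15 genes ran from 5.996 to 7.28 without gain (median 6.74), from 7.28 to 7.83 with gain (median 7.66) and from 5.98 to 6.85 in ESCs (median 6.51). Of the 18 cells with gain, 17 lay above the highest cell without gain, which was well F4 of set 4. The lowest was well G5 of set 4.

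**Figure D3:**
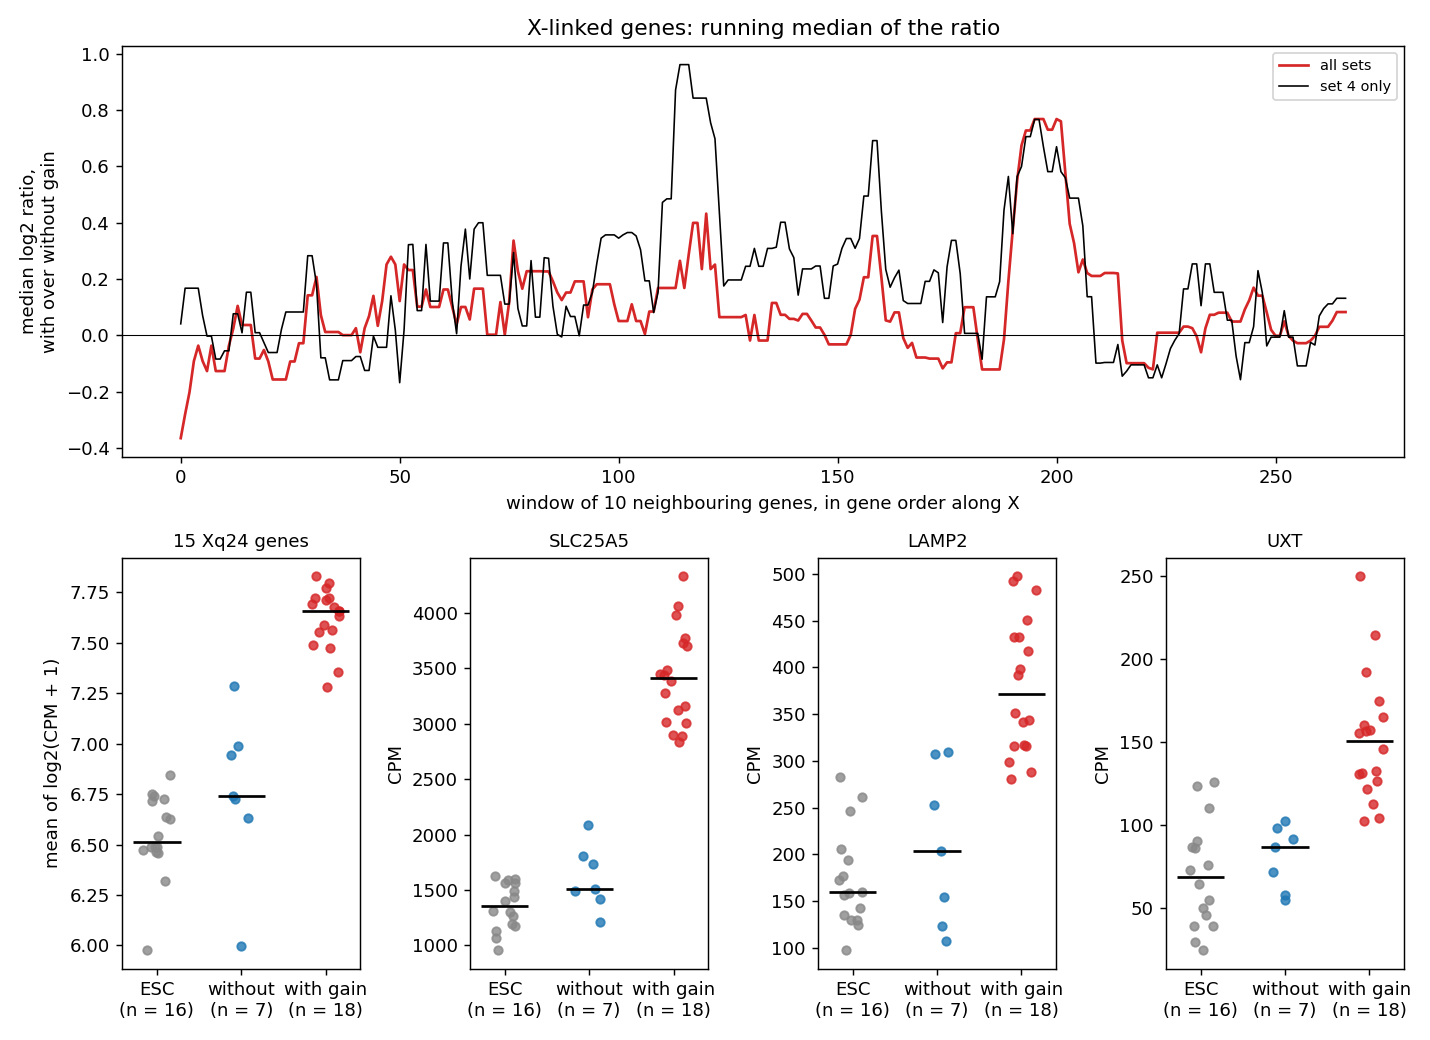
Top: median log2 ratio (cells with gain over cells without gain) of windows of 10 neighbouring X-linked genes in gene order, for all sets (red) and for set 4 only (black). Bottom: mean log2 level of the 15 Xq24 genes and CPM of SLC25A5, LAMP2 and UXT in each cell, with a line at the group median; SLC25A5 is at 2831 CPM or more in every cell with gain and at 2090 CPM or less in every cell without gain.

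The promoters of SLC25A5 and RPL39 are shown because these are the genes of the block in which all cells with gain lay above all cells without gain. The sequences are the 250 bases before the gene start from RefSeq (GRCh38.p14), at chrX:119468194-119468443 on the + strand for SLC25A5 and chrX:119791631-119791880 on the - strand for RPL39, with the dinucleotide CG in capitals, the site of DNA methylation.
SLC25A5: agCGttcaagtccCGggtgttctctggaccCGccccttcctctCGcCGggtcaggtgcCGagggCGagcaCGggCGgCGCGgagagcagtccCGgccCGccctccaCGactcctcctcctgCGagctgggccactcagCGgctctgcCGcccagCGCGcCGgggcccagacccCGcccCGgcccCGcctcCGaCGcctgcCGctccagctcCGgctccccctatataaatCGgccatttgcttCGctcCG
RPL39: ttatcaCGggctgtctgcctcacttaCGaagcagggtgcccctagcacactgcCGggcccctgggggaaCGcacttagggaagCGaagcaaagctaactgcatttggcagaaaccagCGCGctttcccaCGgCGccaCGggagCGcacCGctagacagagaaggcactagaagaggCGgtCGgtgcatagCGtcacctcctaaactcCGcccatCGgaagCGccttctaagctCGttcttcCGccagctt
They hold 30 and 20 CG. Of the 15 genes, 13 had a promoter in the table, with 3 to 34 CG and a median of 23. The median was 18 over 230 other measured X-linked genes and 11 over all 27305 promoters of the same length, of which 93.6% hold at least 1 CG. No methylation was measured.

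A further stretch of X stood apart within set 4. The windows from YIPF6 to NONO and from IGBP1 to OGT had medians of 0.96 within set 4, but 0.27 and 0.29 over all sets. It holds SLC7A3, a transporter of cationic amino acids, at 429 to 1249 CPM without gain and 975 to 2370 CPM with gain (ratio 1.15, 1.47 within set 4, -0.0035 within set 1). NONO, an RNA-binding paraspeckle protein, was at 487 to 1483 CPM and 1041 to 1876 CPM (ratio 0.63, 0.88 within set 4, 0.09 within set 1). Both were picked after their values were seen. The groups overlap in both, with 16 of 18 cells with gain above every cell without gain for SLC7A3 and 11 of 18 for NONO. The X median as a whole was 0.16 within set 4 and -0.08 within set 1.

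In the other direction, the lowest window of the scan was on chromosome 8, from FGFR1 to POLB, with a median of -0.55 (-0.54 within set 4) and 2 of its 10 genes above 0. The next, with -0.54, lay in a run of zinc-finger genes at 19p12 (chr19:20776304-23147219). Of 11 zinc-finger genes in that run, a class of mostly KRAB-type repressors, 1 had a ratio above 0 (ZNF85, 0.22), and the median was -0.54. ZNF43 was at 93.5 CPM without gain and 46.5 CPM with gain (-0.99), and ZNF430 at 98.8 and 54.0 CPM (-0.86). Per cell the mean log2 level ran from 5.67 to 6.41 without gain and from 4.72 to 5.85 with gain, so the groups overlap. Within set 4 the median was -0.19, within set 1 it was -0.61, and 182 other ZNF genes off the 5 chromosomes had a median of -0.05. ESC cells ran from 3.85 to 5.99.

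Single genes with the largest ratios were mostly of low level and read in some cells only. RGS5, a regulator of G-protein signalling, was at 0 to 8.20 CPM without gain (median 0.14 CPM) and 0 to 78.7 CPM with gain (median 16.6 CPM), a ratio of 3.41 (2.41 within set 4). Of the cells with gain, 14 of 18 lay above every cell without gain. ZNF165 on chromosome 6, a zinc-finger gene, was at 0 to 22.2 CPM and 0 to 135.6 CPM (2.29), again with 14 of 18 cells above. PIGA, which starts the synthesis of GPI anchors, had a ratio of 2.43 on pooled levels of 5.83 and 35.8 CPM. FABP3, a fatty acid binding protein, was at 8.45 CPM without and 34.8 CPM with gain (1.92), beside 76.9 CPM in ESCs. The 12 higher genes of the naming rule also held ZNF470 (2.82), CCDC172 (2.51), EFHC2 (2.49), ZNF823 (2.18), COG1 (2.03, -1.08 within set 1), ZNF30 (1.99), MFAP3L (1.94) and H2AC6 (1.86). In all 12 the lowest cell with gain lay inside the range of the cells without gain.

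Among the lower genes, LINC01139, a long non-coding RNA of chromosome 1, came closest to a separation. It was at 14.5 to 71.9 CPM in the 7 cells without gain (median 28.5 CPM) and at 0 to 19.02 CPM with gain (median 0 CPM), with 17 of 18 cells below every cell without gain. The pooled ratio was -3.96, and it ran from -5.20 to -3.64 over all alternatives. ESC cells held 24.97 CPM pooled and ran from 0 to 66.0 CPM (median 22.25 CPM), so their range includes that of the cells with gain. LYSMD4, a gene with a lysin motif, was at 12.6 to 61.2 CPM and 0 to 24.0 CPM (-1.99), with 14 of 18 cells below.

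CXCL5, a chemokine gene, had a pooled ratio of -3.24 that came largely from well G5 of set 4, at 321 CPM where the other cells without gain held 0.15 to 62.2 CPM. Without that cell it was -1.28. SFRP1, a secreted antagonist of WNT, was at 64.6 CPM without and 13.1 CPM with gain (-2.22), and LAMA1, a laminin chain, at 40.1 and 9.96 CPM (-1.90). HEPH, a copper-dependent ferroxidase, had -2.83, HDX -2.37, SOAT1, which esterifies cholesterol, -2.20, TOX -2.02 and KIF13A -1.99. The groups overlap in each of these genes.

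Both markers of the ffEPSC state were read in these cells, but unevenly. DNMT3L, a cofactor of de novo DNA methylation, was at 2.24 CPM in well E4 of set 3, 17.7 CPM in well G5 of set 4, 49.9 CPM in well G4, 53.8 CPM in well E5, 60.3 CPM in well E1, 434 CPM in well F4 and 495 CPM in well F5. With gain it ran from 35.4 to 1495 CPM (median 342 CPM), and ESC cells held at most 1.36 CPM. The pooled ratio was 1.47, but 0.61 within set 4 and 3.55 without wells F4 and F5. The other marker, ERVH48-1, which encodes the placental protein suppressyn, was at 188 to 1172 CPM in 6 of the cells without gain and at 2.18 CPM in well G5, against 110 to 946 CPM with gain (ratio -0.05). Every ffEPSC cell was above all ESC cells in DNMT3L, by little in well E4 of set 3, and well G5 of set 4 had ERVH48-1 inside the ESC range (0 to 88.5 CPM).

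The cells without gain differed widely from each other, and wells F4 and F5, the pair high on chromosome 5, shared more than that chromosome. NLRP7, a gene of the oocyte and early embryo, was at 202 and 139 CPM in them and at most 72.9 CPM in the other 5 cells. ALPG, an alkaline phosphatase, was at 136 and 97.9 CPM and at most 8.8 CPM in the others. CARS2, the mitochondrial cysteinyl-tRNA synthetase, was at 274 and 173 CPM and at most 26.3 CPM in the others. The pooled ratios of ALPG (-1.63) and CARS2 (-1.93) are therefore the level of these cells, and without them both were higher with gain (2.09 and 0.31). That of NLRP7 (-2.50) stayed below 0 in all 16 alternatives, from -2.71 to -0.83. All 3 were pointed out after their values were seen. LTR7, the promoter repeat of HERVH, was at 14631 and 15063 repeat CPM in the pair and at most 7763 in the other 5.

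Core pluripotency genes differed little between the groups. POU5F1, the OCT4 gene, was at 645 to 1762 CPM without gain and 1150 to 1816 CPM with gain (0.14), NANOG at 135 to 270.5 CPM and 117 to 384.5 CPM (0.16), and SOX2 at 18.3 to 91.4 CPM and 26.6 to 117 CPM (0.08). The lowest POU5F1 was that of well G5 of set 4. DPPA2, a chromatin factor of early embryos, was at 0 to 97.4 CPM and 1.28 to 278 CPM (1.29). Of 18 core pluripotency genes off the 5 chromosomes, 10 had a ratio above 0, near the 48.9% of all genes.

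Genes of the primed state were lower with gain as a group. Of 14 measured members off the 5 chromosomes, 3 had a ratio above 0, 0 were past 2-fold, and the median was -0.29 beside -0.01 over all genes. USP44, a deubiquitinase of the spindle checkpoint, was at 91.9 to 454 CPM without gain (median 350 CPM) and 49.3 to 420 CPM with gain (median 149 CPM), against 562 CPM in ESCs. FZD7, a WNT receptor, had a ratio of -0.89, and DUSP6, a phosphatase of ERK, -0.81. The mean log2 level of the list was 5.74 to 6.66 without gain, 4.94 to 6.44 with gain and 5.20 to 7.30 in ESCs. Naive genes had a median of 0.27 over 10 members with 7 above 0, and its sign changed under 1 alternative. Of the 10, 2 stood 2-fold or more higher and 2 as far lower, beside 4.89% and 4.85% of all genes off the 5 chromosomes. DPPA5 had 2.43 on levels of 1.095 and 10.3 CPM. NLRP7 (-2.50) and ALPG (-1.63), described above for wells F4 and F5, belong to the same list.

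Of 20 lysosome and autophagy genes off the 5 chromosomes 17 had a ratio above 0, beside 48.9% of all genes off them. Their median was 0.33 (0.46 within set 4), beside -0.01, but only 1 of the 20 stood 2-fold or more higher. The 5 members on the 5 chromosomes had a median of 0.73, beside 0.39 over all measured genes there. Those chromosomes were used to choose the cells. WIPI1, which marks the forming autophagosome, had a ratio of 1.33 on levels of 8.69 and 23.4 CPM, and LAMP1, the other major lysosomal membrane protein, 0.93 on 7.19 and 14.6 CPM. LAMP2 belongs to this list and to the Xq24 block. The mean log2 level of the list was 5.22 to 6.57 without gain and 5.47 to 6.86 with gain, so the groups overlap.

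Respiratory chain genes showed a smaller difference in the same direction. Of 45 nuclear-encoded members off the 5 chromosomes 34 had a ratio above 0, with a median of 0.15 (0.05 within set 4). All 13 on them were above 0, with a median of 0.50. Over all measured genes there, which were used to choose the cells, 79.1% were above 0 and the median was 0.39. Next to NDUFA5, the complex I subunits NDUFB5 (0.44) and NDUFA8 (0.37) had the largest ratios among members off the 5 chromosomes. Genes of the unfolded protein response of the endoplasmic reticulum had 12 of 15 members above 0, with a median of 0.18. HSPA5, the BiP chaperone, was at 909 to 1575 CPM without gain and 953 to 2929 CPM with gain (0.51). DDIT3, the CHOP factor of prolonged stress, was at 7.59 and 20.7 CPM pooled (1.34, -2.16 within set 1).

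Genes of the cell cycle split. Of 31 S phase genes off the 5 chromosomes 7 had a ratio above 0, with a median of -0.23. CDC6, which loads the replicative helicase, was at 294 and 194 CPM (-0.60) and TYMS, the thymidylate synthase, at 17.9 and 11.7 CPM (-0.58). Spindle checkpoint and cohesin genes had 5 of 22 members above 0, with a median of -0.10 and BUB1, a checkpoint kinase, at -0.51. G2 and mitosis genes had a median of -0.04, with CDC20, the activator of the anaphase-promoting complex, at 0.62 and NUF2, a kinetochore protein, at -0.47. S phase levels per cell (mean log2 of 6.43 to 7.56 and 6.14 to 7.38) overlapped widely.

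Proteasome, ribosome and heat shock genes off the 5 chromosomes had medians within 0.03 of 0. Proteasome subunits had 10 of 22 members above 0 and a median of -0.01 off the 5 chromosomes, beside 10 of 10 and 0.37 on them. Ribosomal protein genes had 23 of 66 above 0 and -0.03 off, beside 12 of 12 and 0.39 on. Heat shock genes had 11 of 20 above 0 and 0.01 off, beside 8 of 8 and 0.32 on. Over all 2203 measured genes on the 5 chromosomes, 79.1% had a ratio above 0 and the median was 0.39. The members on them were near that median, and those chromosomes were used to choose the cells. p53 targets had a median of -0.19 over 15 members, with BAX, an effector of apoptosis, at 0.93 and TP53I3 at -0.77, and its sign varied over the alternatives. ATF4 targets had 8 of 17 above 0 and a median of -0.0011, but 0.45 within set 4. SLC7A11, the cystine transporter, had 0.84 (-0.82 within set 1) and AARS1, the alanyl-tRNA synthetase, 0.77. ATF5 went the other way, at -0.59 (-1.20 within set 4). FGF and ERK genes had 11 of 17 above 0 and a median of 0.16, with SPRY2, a feedback inhibitor, at 0.95. Interferon-stimulated genes had 3 of 10 above 0 and a median of -0.23, with IFIT5 at -1.10 and HLA-B at 0.78. Over all 31 lists, 12 of 528 distinct members measured off the 5 chromosomes (2.27%) stood 2-fold or more higher and 12 (2.27%) as far lower, beside 4.89% and 4.85% of all genes off them.

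Signalling, metabolic and chromatin lists were mixed. NODAL, TGF-beta and BMP genes had 17 of 23 members above 0 and a median of 0.14. The decoy receptor BAMBI had 1.52, the activin receptor ACVR2A 1.49 (-3.60 within set 1) and ID4, a target of BMP, -1.12. WNT genes had 5 of 13 above 0 (-0.06). Cholesterol synthesis had 12 of 18 above 0 (0.08), with its feedback regulator INSIG1 at 0.65. Glycolysis had 12 of 21 above 0 (0.04), with the glucose transporters SLC2A1 and SLC2A3 at 0.77 and 0.65. DNA methylation and heterochromatin genes had 8 of 23 above 0 and a median of -0.24, which was 0.13 within set 4; TASOR, of the HUSH silencing complex, had -0.82 and the H3K9 methyltransferase SETDB1 0.80. BCL2 family and apoptosis genes had 8 of 14 above 0 (0.04), with HRK, which promotes apoptosis, at 1.298 and CASP8, the initiator caspase of death receptors, at -1.48. Imprinted genes had 2 of 9 above 0 (-0.08), with PEG10 at -0.83, and Polycomb genes 10 of 18 (0.01).

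**Figure D4:**
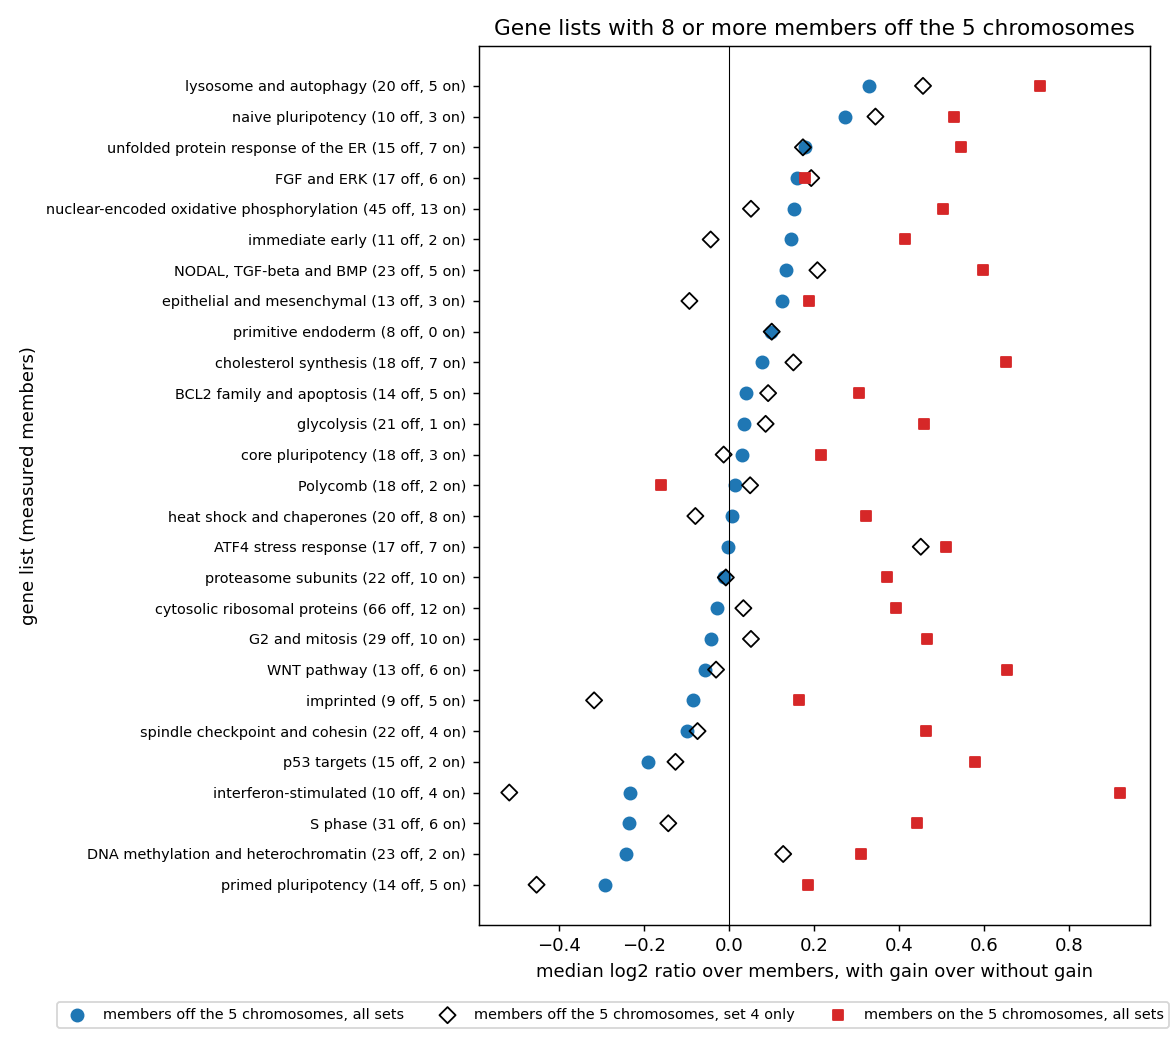
Median log2 ratio (cells with gain over cells without gain) of each gene list with 8 or more measured members off the 5 chromosomes: members off them for all sets (blue) and for set 4 only (diamonds), and members on them (red squares). Members on the 5 chromosomes, which were used to choose the cells, lie to the right of those off them, except for Polycomb. For the proteasome the medians are 0.37 on and -0.01 off.

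Markers of other cell types did not separate the groups. Trophoblast markers summed to 0 to 18.1 CPM without gain and 0 to 22.5 CPM with gain, neuroectoderm markers to 0 to 11.4 and 0 to 6.27 CPM, and mesoderm markers to 0 to 24.8 and 0 to 57.9 CPM. Primitive endoderm markers summed to 19.3 to 85.0 CPM and 15.7 to 160 CPM, and fibroblast or feeder markers to 154 to 312 and 63.9 to 557 CPM, beside 178 to 947 CPM in ESCs. The ranges of the groups overlap for every marker list. The defining markers CGA, TP63, GATA6, SOX17, SOX1, HAND1 and COL3A1 are not among the listed genes, so these sums leave them out. The trophoblast, primitive endoderm, neuroectoderm and mesoderm sums rest on 3 markers each, and the fibroblast or feeder sum on 5. KRT8 and KRT18, keratins that trophoblast shares with both ESCs and ffEPSCs here, reached 4159 and 3466 CPM in well F4 of set 4. With gain they reached 3278 and 2367 CPM, and in ESC cells 1402 and 1271 CPM. Their medians were 1307 and 973 CPM without gain and 2209 and 1676 CPM with gain.

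Repeats were compared per summed repeat counts, as CPM of all repeat counts (repeat CPM). A repeat name carries no position, so copies on the 5 chromosomes count in its level and in the scaling. Their part in the ratios was not tested. Repeat counts per 100 gene counts were 43.1 to 66.0 without gain and 33.5 to 64.4 with gain. Of 564 repeat names with 100 repeat CPM or more in at least 1 group, 3 (0.532%) stood 2-fold or more higher with gain and 10 (1.77%) as far lower, and 0 separated the groups in either direction. The median ratio was 0.02, and 5% of names lay below -0.44 and 5% above 0.50.

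Some, but not all, of the repeats that stand above ESCs in these cells had higher values with gain. LTR5-Hs, the promoter repeat of the HERVK family, was at 9987, 6427, 5385, 10174, 10406, 4935 and 2881 repeat CPM in wells E1, E4, E5, F4, F5, G4 and G5 without gain and at 6599 to 16494 repeat CPM with gain (median 13242). Of 18 cells with gain, 12 lay above every cell without gain, and the ratio was 0.76 (0.89 within set 4). HERVK-int, the internal part of the same virus family, was at 3197 to 18205 and 7554 to 27386 repeat CPM (0.68), and SVA-F, a hominoid composite element, at 389 to 1338 and 749 to 1953 repeat CPM (0.67). Within set 1 HERVK-int went the other way (-0.25). ESC cells held at most 699 repeat CPM of LTR5-Hs.

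HERV4-I had the largest positive ratio, 2.01, with 57.8 repeat CPM without gain, 236 repeat CPM with gain and 214 repeat CPM in ESCs. MER11A, a further HERVK-type promoter repeat, was at 5.50 to 156 and 92.4 to 384 repeat CPM (1.15). HERVH-int, the most abundant of these names, had 0.26, LTR7 0.30, L1HS -0.43, AluY 0.02 and SVA-D -0.07. HERVH48-int and MER48, the internal part and promoter repeat around ERVH48-1, had 0.05 and 0.15, and -0.22 and -0.06 without well G5 of set 4. In each of these the groups overlap.

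Satellites were lower with gain in the pooled values, and most of that came from 1 cell. HSATII, a pericentromeric satellite, was at 1571 repeat CPM in well G5 of set 4, 411 in well F5 and 21.6 to 73.0 in the other 5 cells without gain, against 0.35 to 509 with gain (median 20.04). The ratio was -2.34, and -0.60 without well G5. ALR\Alpha, the alpha satellite of centromeres, was at 3296 repeat CPM in well G5, 1254 in well F5 and 66.7 to 276 in the others, against 33.5 to 405 with gain (-2.81, and -1.40 without well G5). The simple repeat (ATTCC)n, whose unit also makes up satellites II and III, stood at 2487 repeat CPM in well G5 and at most 145.5 in the other cells without gain (-2.85, and 0.03 without well G5). Without that cell, 2 names stood 2-fold or more lower, in place of 10. The same cell had the lowest LTR5-Hs, HERVK-int, SVA-F, LTR7 and ERVH48-1 of the 7, and the highest LINC01139 and CXCL5. Its gene counts, 14881256, lay within the range of the others, and its repeat counts per 100 gene counts, 66.0, were the highest of the 7. The part of this in the satellite values was not tested.

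**Figure D5:**
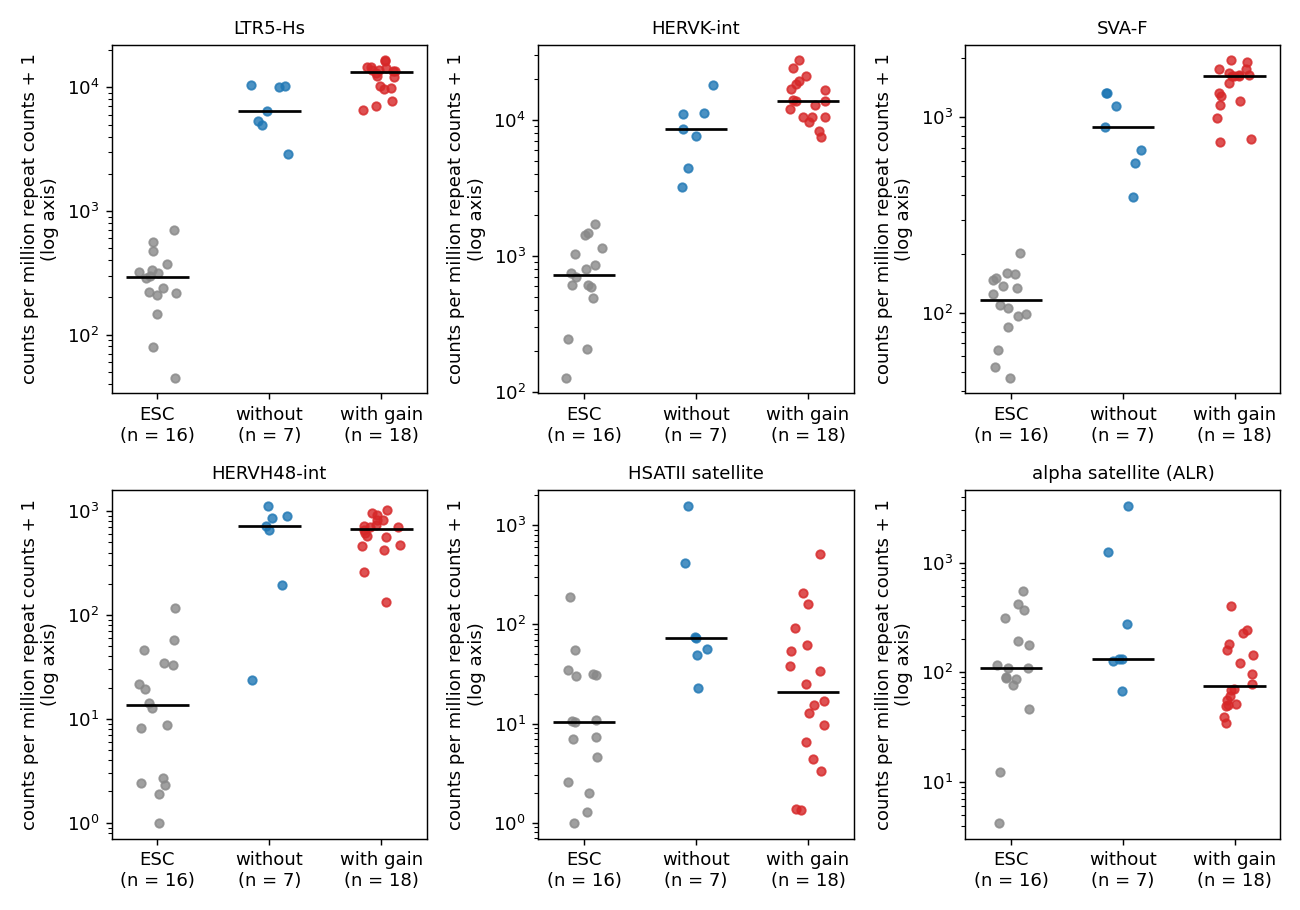
Repeat CPM plus 1 (log axis) of 6 repeats in each cell of ESCs and of ffEPSCs without and with gain, with a line at the group median. LTR5-Hs reaches at most 10406 in cells without gain and 16494 with gain, and the highest point of both satellites is well G5 of set 4.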

How the data were processed

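The deposited values are raw counts per gene and per repeat name for each cell. Tools named per the submitters' processing notes are bcl2fastq, HISAT2 2.2.1, SAMtools 1.6 and Subread 2.0.6 with featureCounts. The same notes list GRCh38 and T2T-CHM13, without their roles. No source used here gives the annotation, the rule for multi-mapping reads or the use of strand. Of 22474 listed genes, 21253 were placed on chromosomes 1 to 22 or X with GENCODE 29; 0 mitochondrially encoded genes are listed.

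Counts were summed per group of cells and scaled to genes off the 5 chromosomes (repeats to repeat counts, floor 100 repeat CPM). With 1 sample per state no test was run; intervals are exact and conditional, at 95%, and count both reads of a pair, since 98.1% or more of nonzero gene counts in each ffEPSC cell were even. The steps were tested on simulated data. Python 3.11.15, pandas 2.3.3, scipy 1.17.1 and edgeR 4.0.16 (TMM factors only) were used. Cells were not filtered, and doublets were not called.

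The cells, gene lists and alternatives of the plan were chosen with earlier results of these data known. Named genes off the 5 chromosomes are the 12 largest and 12 smallest ratios with 20 CPM in the higher group, 1 CPM in at least 50% of its cells and 1.5-fold in the same direction within set 4, without ribosomal protein genes, pseudogenes and genes without a symbol; also up to 3 members per list, 7 genes per gained chromosome, and 8 repeats each way plus a fixed list. Other genes named, the Xq24 and 19p12 blocks and the simple repeats were chosen after their values were seen. Alternatives changed the scaling, floor, pseudocount and cells; leaving out wells F4 and F5, or keeping 3 low cells, was added after seeing the data.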

Additional observations from a re-analysis of the deposited data

How the results depend on the processing

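The 5 chromosome medians kept their sign in all 17 alternatives, as did the Xq24 block (0.65 to 0.93) and the 19p12 block (-0.64 to -0.19) in 16. The cells were chosen by the level of these chromosomes and the blocks by their ratios, so the kept signs are a description only. Counts of genes past 2-fold depended on the cells and the floor. Scaling to all gene counts moved the median of all genes off the 5 chromosomes from -0.01 to -0.10 and gave 0.22 on chromosome 5 and 0.38 on chromosome 14. Set 4 alone gave 0.18 on chromosome 5, 907 genes higher and 891 lower, 29 list members higher and 30 lower, and 6 repeats higher and 19 lower. Without a floor there were 1077 genes higher and 962 lower, 23 and 20 list members, and 101 and 156 repeats; at 20 CPM there were 132 and 116 genes, and 5 list members lower. Means over cells gave 718 genes lower and 21 list members higher. Leaving out each cell without gain gave 449 to 598 genes higher and 448 to 548 lower, 14 to 23 list members higher, and 1 to 4 repeats higher and 2 to 13 lower. Without wells F4 and F5, chromosome 5 was at 0.41, 667 genes were lower, 25 list members higher and 19 lower, and 6 repeats higher. With only the 3 lowest cells, chromosome 5 was at 0.51 and chromosome 11 at 0.54, with 1156 genes higher and 763 lower, 44 and 20 list members, and 14 repeats higher.

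Of 161 named genes 23 changed sign under at least 1 alternative, among them HNRNPC, NANOG, SOX2, KRT18 and ERVH48-1, and of 33 named repeats 10 did, among them AluY, SVA-D, HERVH48-int and MER48. Of those past 2-fold, 6 genes did so: MIXL1 (from 1.298 to -1.83 in set 4, -0.71 without set 2), BMI1 (from 1.78 to -0.77 and -0.61), PHC2 (from -2.45 to 0.042 in set 4), CARS2 (0.31 without wells F4 and F5, 0.70 with the 3 lowest cells), ALPG (2.09 and 3.47) and KIF13A (0.37 with the 3 lowest cells). The 3 repeats past 2-fold that did so are simple repeats: leaving out each cell without gain gave -3.09 to 0.031 for (ATTCC)n, -2.98 to 0.043 for (GGAAT)n and -2.33 to 0.45 for (AATGG)n, the upper value being without well G5. The cause was not tested. Keeping only cells clear of 0.3 left out 0 cells. Set 1 alone, with 1 cell without gain, was not among the alternatives. Single cells and 1 sample per state limit every value, and the ranges of depth per cell overlap. No paired analysis was possible because each state is 1 sample and cells carry no pair numbers.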
